A study of Mus musculus with 12 samples.

Results

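The enzymes that write and remove DNA methylation were followed in activated mouse T cells cultured with or without azacitidine (AzaC), a cytidine analogue that traps DNA methyltransferases on DNA. The set holds 10 genes: Dnmt1, Uhrf1, Uhrf2 and Hells for maintenance methylation, Dnmt3a and Dnmt3b for de novo methylation, and Tet1, Tet2, Tet3 and Tdg for active demethylation. A gene was taken from the array rows that carry its symbol and no other, with the brightest row over the 12 arrays where there were several. By this rule 9 of the 10 were measured, among 22180 genes in all. Tdg, the glycosylase that excises oxidised methylcytosine, had 0 rows of its own and 2 rows shared with Tdg-ps and Tdg-ps2, so no value is given for it.

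RNA was measured on 12 Affymetrix arrays in 4 groups of 3. Natural regulatory T cells (nTregs) came from spleens of B6.Foxp3GFP mice, in which green fluorescent protein marks cells that express Foxp3. Treg-depleted T cells came from B6.Foxp3GFP x B6.CAGDSRED mice, which also carry a red fluorescent protein under the ubiquitous CAG promoter. The strain label of all 12 arrays, those of nTregs included, gives B6.Foxp3GFP crossed with B6.Cg-Tg(CAG-DsRed*MST)1Nagy/J, and no age. The populations were grown together at 1 part nTregs to 10 parts effector cells and stimulated for 2 days by anti-CD3/CD28 beads in medium with interleukin-2 (500 U/mL). They were then kept for 2 more days with 1 µM AzaC or with PBS, so all 4 groups share the activation, the interleukin-2 and the co-culture. The groups were nTregs with AzaC, nTregs under PBS, CD4 effector T cells with AzaC and CD4 effector T cells under PBS, sorted as CD4+DSRed-Foxp3GFP+ for nTregs and CD4+DSRed+Foxp3GFP- for effector cells (called CD4 cells here). Nothing in the labels ties the 3 replicates of a group to separate animals or cultures, so each p-value reflects only the variation among these samples, which may be technical.

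Methylation of cytosine in CpG dinucleotides is copied onto new DNA after each replication. Uhrf1 binds hemimethylated CpGs and recruits Dnmt1, which methylates the new strand, while the chromatin remodeller Hells (Lsh) opens compact chromatin for this step and Dnmt3a and Dnmt3b set new marks. The Tet dioxygenases oxidise methylcytosine, which leads to its loss by dilution or by excision, and in nTregs Tet2 and Tet3 keep an enhancer of Foxp3 unmethylated. AzaC acts on the methyltransferase proteins, whereas the arrays measured RNA.

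Promoter windows were read for all 10 genes from RefSeq sequence of GRCm38.p6, 15 windows of 300 bases in all, each with 250 bases before and 50 after an annotated start. They were searched on both strands for the E2F words TTTCCCGC, TTTGGCGC, TTTCGCGC and TTTGCCGC, which are bound by the E2F factors of the G1/S transition. Dnmt1, Uhrf1 and Hells are the 3 genes with a word in a window, and their 250 upstream bases are shown because the same 3 genes have the same order of group means below. That order was not tested, and Hells correlated negatively with Dnmt1 and Uhrf1 once group means were taken out. Capitals mark the word as it reads on the gene's strand. The windows are chr9:20952624-20952873 on the minus strand for Dnmt1, chr17:56304063-56304312 on the plus strand for Uhrf1 and chr19:38930740-38930989 on the plus strand for Hells.
Dnmt1: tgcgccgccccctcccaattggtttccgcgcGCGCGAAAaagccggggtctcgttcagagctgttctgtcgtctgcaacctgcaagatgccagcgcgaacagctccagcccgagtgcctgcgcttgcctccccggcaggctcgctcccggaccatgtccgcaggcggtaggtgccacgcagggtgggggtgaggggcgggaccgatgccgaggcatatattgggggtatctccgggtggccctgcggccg
Uhrf1: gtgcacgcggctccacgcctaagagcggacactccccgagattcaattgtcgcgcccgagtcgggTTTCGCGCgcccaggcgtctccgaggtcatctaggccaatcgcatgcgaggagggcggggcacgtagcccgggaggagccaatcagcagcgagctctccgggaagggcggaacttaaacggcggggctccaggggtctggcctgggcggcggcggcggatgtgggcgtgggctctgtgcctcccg
Hells: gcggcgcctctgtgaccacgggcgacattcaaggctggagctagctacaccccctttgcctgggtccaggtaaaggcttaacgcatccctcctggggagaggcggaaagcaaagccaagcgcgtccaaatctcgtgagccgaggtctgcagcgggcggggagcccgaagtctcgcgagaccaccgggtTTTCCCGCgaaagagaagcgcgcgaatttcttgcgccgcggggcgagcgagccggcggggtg
All 3 windows lie inside the spans that RefSeq gives the genes, at 20907206 to 20959888 on chromosome 9 for Dnmt1, 56303337 to 56323486 on chromosome 17 for Uhrf1 and 38930262 to 38970470 on chromosome 19 for Hells, so each belongs to a start within the gene. The word began 219 bases before the start in Dnmt1, 185 bases before it in Uhrf1 and 62 bases before it in Hells, and the Dnmt1 window held a further word, TTTGGCGC, 33 bases after its start. GCGCGAAA in Dnmt1 is TTTCGCGC read on the opposite strand. Among all 32851 windows of this length, 744 held at least 1 of the words (2.3%). Dnmt1 has 3 annotated windows and Uhrf1 2, and their other windows held none of these letters. The arrays do not tell which start was used, and a match describes the sequence, not binding. CpG dinucleotides numbered between 2 and 57 per window over the 10 genes, against a median of 7 over all windows, with the highest number in the window of Tet2.

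The deposited values are log2 signals made with RMA. Over the 12 arrays the median lay between 6.67 and 6.80. nTreg PBS replicate 1 stood apart: its mean correlation with the other arrays over all genes was 0.972, and its SD from its group mean was 0.257, against 0.114 to 0.192 for the other arrays. Values that it moves are given with and without it. All 7 Treg markers were higher in nTregs than in CD4 cells, both with AzaC and under PBS, and Foxp3 averaged 12.69 ± 0.02 in nTregs with AzaC, 12.34 ± 0.31 in nTregs under PBS, 9.62 ± 0.23 in CD4 cells with AzaC and 8.05 ± 0.24 in CD4 cells under PBS (SD, n = 3 each). Cd4, the marker that both gates share, averaged 10.97 ± 0.04, 10.84 ± 0.41, 11.37 ± 0.05 and 11.68 ± 0.04 in the same order of groups. Differences are on the log2 scale with the limma SE, and a call means an adjusted p under 0.05 (Benjamini-Hochberg, 22180 genes).

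Hells was the 1 member of the 9 whose RNA passed the test for AzaC in a single population, and it did so in CD4 cells. It had 10.32, 10.33 and 10.20 in CD4 cells with AzaC, against 9.70, 9.69 and 9.59 under PBS. Every AzaC array lay above every PBS array, and the gap between the groups was wider than the spread inside either. The group means were 10.28 ± 0.07 and 9.66 ± 0.06 (SD, n = 3 each), a log2 difference of 0.63 (SE 0.10, 95% interval 0.41 to 0.85, limma adjusted p = 0.00637) or 1.54-fold. In CD4 cells limma called 1.76% of all genes, 0.83% higher and 0.933% lower. That split, 184 higher and 207 lower, moved with the scaling, to 133 and 325 with arrays centred on their medians and 203 and 138 with repeated quantile normalization. The call held without any 1 of the 12 arrays, with differences between 0.59 and 0.67 and adjusted p-values between 0.0025 and 0.0347. In these bulk samples, a change in how many cells hold a transcript and a change in its RNA per cell cannot be told apart.

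In nTregs the same gene had 9.66, 9.55 and 9.39 with AzaC, against 9.51, 9.30 and 9.41 under PBS. The groups overlapped, and the difference of 0.13 (SE 0.10, 95% interval −0.10 to 0.35, limma adjusted p = 0.547) did not pass. The difference between the AzaC effects, nTregs minus CD4 cells, was −0.50 for Hells (SE 0.15, 95% interval −0.81 to −0.19). Its unadjusted p was 0.00408 and its adjusted p 0.177, so it was not called. Of all genes, 0.203% were called for this difference (0.144% higher and 0.0586% lower, or 32 and 13 genes, against 84 and 7 with centred arrays and 32 and 23 with repeated quantile normalization), and 0 of the 9 members were (1 had an unadjusted p under 0.05). The 2 AzaC effects have no arrays in common, but they share the model's estimate of the spread. The populations were also grown together before sorting, and the labels do not tell whether their arrays came from the same cultures. Averaged over both populations, AzaC gave a difference of 0.38 for Hells (SE 0.07, limma adjusted p = 0.00972), the only call among the 9 members where limma called 3.71% of all genes, 2.04% higher and 1.66% lower. It lay between 0.34 and 0.41 when each array was left out in turn, and stayed called each time.

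**Figure D1:**
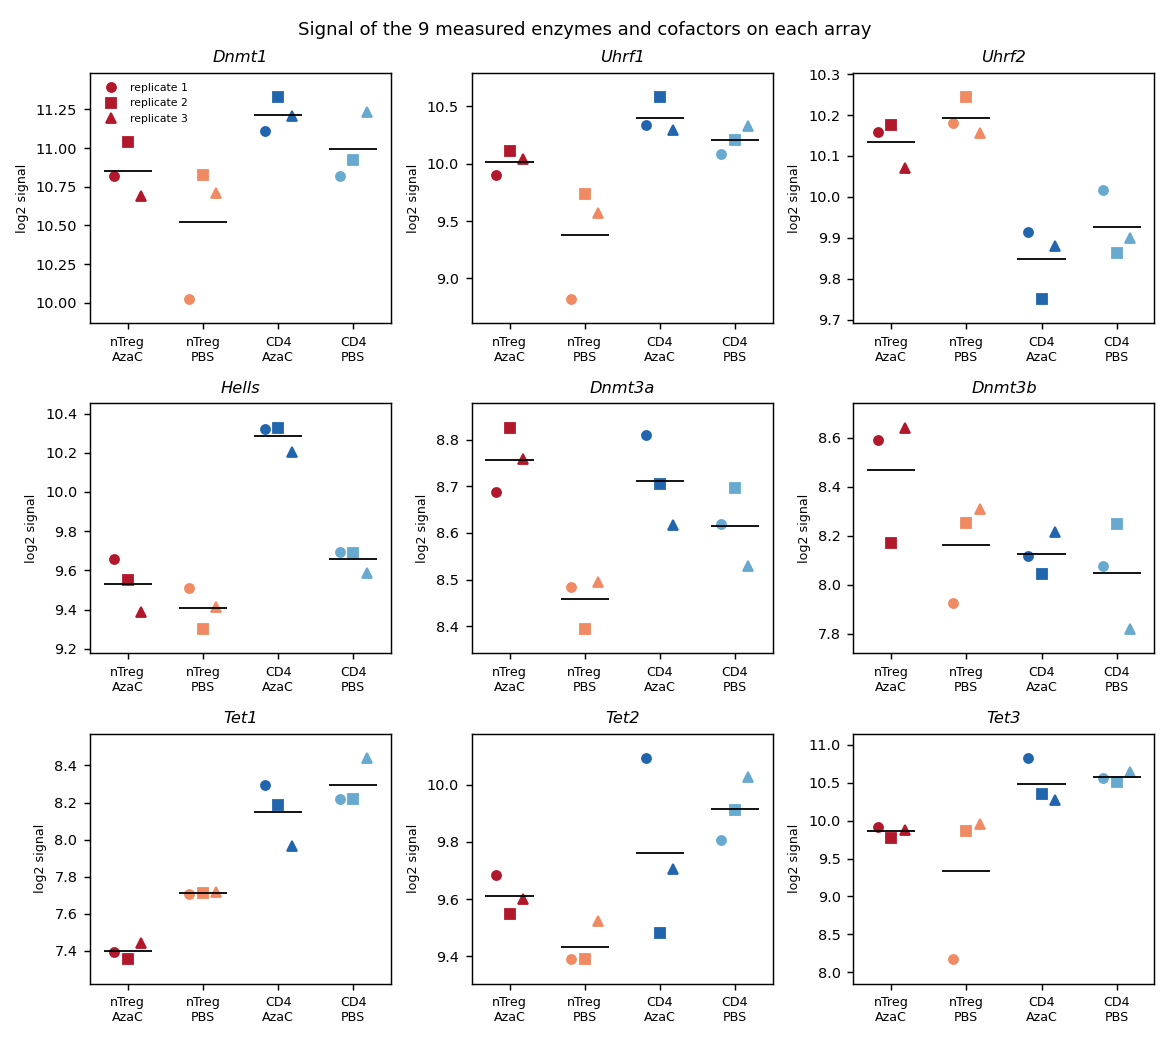
Log2 signal of the 9 measured members on each of the 12 arrays, grouped as nTregs with AzaC, nTregs under PBS, CD4 cells with AzaC and CD4 cells under PBS, with a point per array and a bar for each group mean. Hells stands highest on the 3 arrays of CD4 cells with AzaC, and nTreg PBS replicate 1 lies far below its group for Tet3 (8.17), Uhrf1 (8.82) and Dnmt1 (10.02).

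Dnmt1, the maintenance methyltransferase and a direct protein target of AzaC, had 10.82, 11.04 and 10.69 in nTregs with AzaC, against 10.02, 10.83 and 10.71 under PBS. In CD4 cells it had 11.11, 11.33 and 11.21 with AzaC, against 10.82, 10.92 and 11.23 under PBS. The groups overlapped in both populations, and the low PBS value in nTregs belongs to replicate 1. The AzaC difference in nTregs was 0.33 (SE 0.18, limma adjusted p = 0.375) and was 0.08 without that array. In CD4 cells it was 0.22 (SE 0.18, 95% interval −0.17 to 0.62, limma adjusted p = 0.58).

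Uhrf1, which brings Dnmt1 to hemimethylated DNA, had 9.90, 10.11 and 10.04 in nTregs with AzaC, against 8.82, 9.73 and 9.57 under PBS. The groups did not overlap, as was the case for 24.5% of all genes in nTregs. The difference was 0.64 (SE 0.19, 95% interval 0.24 to 1.04, limma adjusted p = 0.101), or 0.36 with an adjusted p of 0.177 without nTreg PBS replicate 1. Without nTreg PBS replicate 2 its adjusted p was 0.0375, so 1 array decided which side of the threshold it fell on. In CD4 cells Uhrf1 had 10.34, 10.58 and 10.29 with AzaC, against 10.09, 10.21 and 10.33 under PBS, where the groups overlapped (0.19, SE 0.19, limma adjusted p = 0.642). The difference between the effects was 0.45 (SE 0.26, 95% interval −0.12 to 1.01, limma adjusted p = 0.375), and 0.17 without nTreg PBS replicate 1.

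Uhrf2, the paralogue that binds oxidised methylcytosine and does not replace Uhrf1 in maintenance, varied little within groups. It had 10.16, 10.17 and 10.07 in nTregs with AzaC, against 10.18, 10.24 and 10.16 under PBS. In CD4 cells it had 9.91, 9.75 and 9.88 with AzaC, against 10.02, 9.86 and 9.90 under PBS. The AzaC and PBS groups overlapped in both populations, whereas all 6 nTreg arrays lay above all 6 CD4 arrays. The AzaC differences were −0.06 (95% interval −0.26 to 0.14) in nTregs and −0.08 (−0.28 to 0.12) in CD4 cells, with limma adjusted p-values of 0.773 and 0.721.

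Dnmt3a, a de novo methyltransferase active in differentiating T cells, had 8.69, 8.83 and 8.76 in nTregs with AzaC, against 8.48, 8.39 and 8.50 under PBS. All 3 AzaC arrays lay above all 3 PBS arrays. The difference of 0.30 (SE 0.10, 95% interval 0.09 to 0.51) had a limma adjusted p of 0.142 and was not called. In CD4 cells Dnmt3a had 8.81, 8.70 and 8.62 with AzaC, against 8.62, 8.70 and 8.53 under PBS, which overlapped (0.10, SE 0.10, limma adjusted p = 0.664). Averaged over both populations it stood at 0.20 (SE 0.07, limma adjusted p = 0.157).

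Dnmt3b, the other de novo methyltransferase, had 8.59, 8.17 and 8.64 in nTregs with AzaC, against 7.93, 8.25 and 8.31 under PBS. It had 8.12, 8.04 and 8.22 in CD4 cells with AzaC, against 8.08, 8.25 and 7.82 under PBS. Its replicates overlapped across the drug in both populations. The difference in nTregs was 0.30 (SE 0.15, 95% interval −0.02 to 0.63, limma adjusted p = 0.324), or 0.19 without nTreg PBS replicate 1 (limma adjusted p = 0.649). In CD4 cells it was 0.08 (SE 0.15, 95% interval −0.25 to 0.40, limma adjusted p = 0.838).

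Tet1, one of the dioxygenases that oxidise methylcytosine, had 7.39, 7.35 and 7.44 in nTregs with AzaC, against 7.71, 7.71 and 7.72 under PBS. The groups did not overlap, and Tet1 was the 1 member of the 9 whose nTreg arrays with AzaC all lay below those under PBS. The difference of −0.31 (SE 0.11, 95% interval −0.54 to −0.08, 0.804-fold) had a limma adjusted p of 0.162 and was not called. In CD4 cells Tet1 had 8.29, 8.18 and 7.97 with AzaC, against 8.22, 8.22 and 8.44 under PBS, and the groups overlapped (−0.15, SE 0.11, limma adjusted p = 0.531).

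Tet2 had 9.68, 9.55 and 9.60 in nTregs with AzaC, against 9.39, 9.39 and 9.52 under PBS. It had 10.09, 9.48 and 9.70 in CD4 cells with AzaC, against 9.81, 9.91 and 10.03 under PBS. The nTreg groups did not overlap and the CD4 groups did, with the widest spread among CD4 cells with AzaC. The differences of 0.18 (SE 0.14, limma adjusted p = 0.521) in nTregs and −0.16 (SE 0.14, limma adjusted p = 0.604) in CD4 cells were opposite in sign, and the difference between them was 0.33 (SE 0.19, limma adjusted p = 0.368).

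Tet3 had 9.92, 9.77 and 9.88 in nTregs with AzaC, against 8.17, 9.87 and 9.95 under PBS. A single array, nTreg PBS replicate 1, was more than 1 log2 unit below the other 5 nTreg arrays. With it the difference was 0.53 (SE 0.34, limma adjusted p = 0.435), and without it −0.05 (limma adjusted p = 0.923). In CD4 cells Tet3 had 10.83, 10.35 and 10.28 with AzaC, against 10.56, 10.50 and 10.64 under PBS, which overlapped (−0.08, SE 0.34, limma adjusted p = 0.929).

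Set side by side, AzaC left 0 of the 9 members called in nTregs, where limma called 2.02% of all genes (1.42% higher and 0.6% lower), and 3 of the 9 had an unadjusted p under 0.05 (16.8% of all genes). The 315 genes called higher and 133 called lower in nTregs became 409 and 83 with centred arrays and 252 and 184 with repeated quantile normalization. In CD4 cells 1 of the 9 had an unadjusted p under 0.05, and 15.2% of all genes did. In nTregs the groups did not overlap for 4 members, 3 higher and 1 lower with AzaC, as for 24.5% of all genes (11% higher and 13.5% lower). In CD4 cells they did not overlap for 1 member, higher with AzaC, as for 23.6% of all genes (11.4% higher and 12.2% lower). The median difference over the 9 members was 0.30 in nTregs, with all genes at −0.04. It was 0.15 without nTreg PBS replicate 1, with all genes at −0.03. In CD4 cells it was 0.08, with all genes at 0.01. A call that is missed does not show that RNA of a member was unchanged: with 3 arrays per group the intervals for Dnmt1 and Tet3 reach 0.72 and 1.25 in nTregs.

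**Figure D2:**
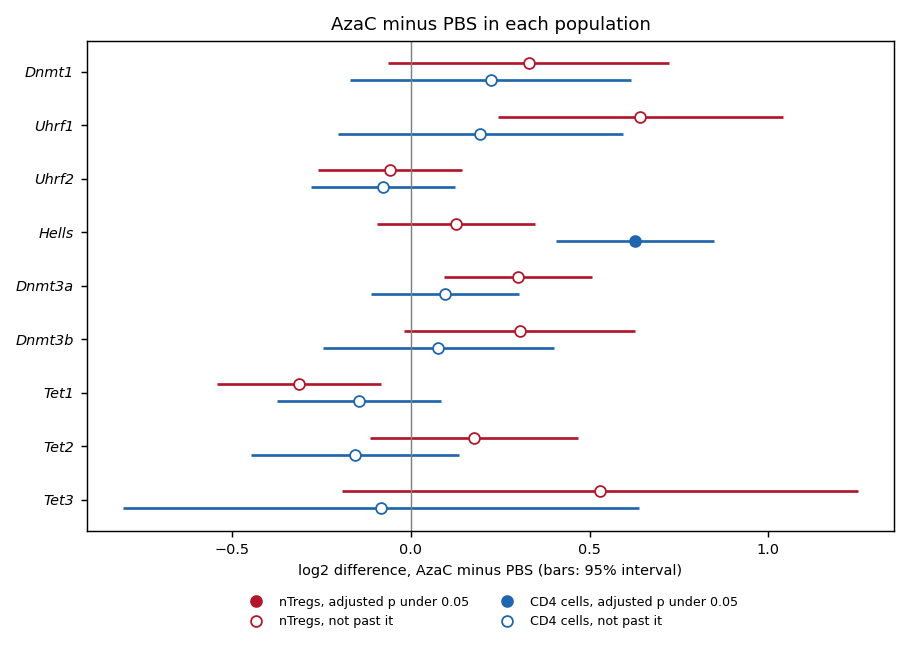
Log2 difference of each member, AzaC minus PBS, in nTregs and in CD4 cells, with 95% intervals from limma and filled points for an adjusted p under 0.05. Hells in CD4 cells, at 0.63, is the 1 filled point, and the interval of Tet3 in nTregs runs from −0.19 to 1.25.

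Markers of other cells moved with AzaC in the same comparisons. Cd8a and Cd8b1, which mark CD8 T cells, had a mean level of 9.62 to 9.75 over nTreg arrays with AzaC and 8.35 to 8.96 over those under PBS. Both were called higher with AzaC, by 1.39 and 0.72 (limma adjusted p = 0.0018 and 0.0213). Without nTreg PBS replicate 1, which had the lowest mean level of 8.35, 1 of the 2 was called. The median difference of the 2 was then 0.91, against 1.05 with all arrays. In CD4 cells their mean level was 8.11 to 8.54 with AzaC and 8.46 to 8.55 under PBS, and 0 of the 2 were called. Of the Treg markers, 1 of 7 rose with AzaC in nTregs (Ikzf4 by 0.76, limma adjusted p = 0.0152) and 3 of 7 in CD4 cells (Foxp3 by 1.57, Ikzf4 by 0.98 and Il2ra by 0.59). The mean of the 7 was 11.35 to 11.44 in nTregs with AzaC and 10.93 to 11.25 under PBS, and 9.93 to 10.01 in CD4 cells with AzaC and 9.46 to 9.51 under PBS. The mean of 12 myeloid and dendritic cell markers was 6.35 to 6.47 in nTregs with AzaC, 6.48 to 6.68 in nTregs under PBS, 6.25 to 6.33 in CD4 cells with AzaC and 6.35 to 6.41 in CD4 cells under PBS. With AzaC, 1 of the 12 was called higher and 1 lower in nTregs, and 1 was called lower in CD4 cells. Their part in the values of the members was not tested.

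Between the populations, the members called in the fit to all 12 arrays were lower in nTregs. Under PBS, 4 of the 9 were called lower in nTregs than in CD4 cells (Uhrf1, Tet1, Tet2 and Tet3) and 0 higher, where limma called 8.01% of all genes (3.9% higher and 4.12% lower, or 864 and 913 genes, against 637 and 1052 with centred arrays and 842 and 739 with repeated quantile normalization). With AzaC, 2 of the 9 were called lower (Hells and Tet1) and 0 higher, where 6.75% of all genes were called (4.57% higher and 2.19% lower, or 1013 and 485 genes, against 1364 and 298 with centred arrays and 857 and 657 with repeated quantile normalization). Unadjusted p-values under 0.05 were held by 7 members under PBS and 4 with AzaC, against 23% and 20.5% of all genes. The median over the 9 members was −0.36 with AzaC and −0.47 under PBS, and over all genes −0.04 and 0.03. Without nTreg PBS replicate 1 the median under PBS was −0.30, with all genes at 0.01. There 3 members were called (Uhrf1, Tet1 and Tet3), and 7.25% of all genes. With AzaC 4 were called in that fit (Uhrf1, Hells, Tet1 and Tet3), and 11.1% of all genes, against 6.75% with all arrays.

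Tet1 was called in both population comparisons. With AzaC its level was 7.40 ± 0.05 in nTregs and 8.15 ± 0.17 in CD4 cells, a difference of −0.75 (SE 0.11, 95% interval −0.98 to −0.52, limma adjusted p = 0.000517). Under PBS it was 7.71 ± 0.01 in nTregs and 8.29 ± 0.13 in CD4 cells (SD, n = 3 each), a difference of −0.58 (SE 0.11, 95% interval −0.81 to −0.35, limma adjusted p = 0.00391). All 6 nTreg arrays lay below all 6 CD4 arrays. Both calls held without any 1 of the 12 arrays, at −0.84 to −0.68 with AzaC and −0.62 to −0.51 under PBS.

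Hells was 9.53 ± 0.14 in nTregs with AzaC and 10.28 ± 0.07 in CD4 cells with AzaC (SD, n = 3 each). The difference of −0.75 (SE 0.10, 95% interval −0.97 to −0.53, limma adjusted p = 0.000371, 0.594-fold) held without any 1 of the 12 arrays, at −0.81 to −0.68. Under PBS the same comparison gave −0.25 (SE 0.10, limma adjusted p = 0.162), with no overlap between groups and no call. The CD4 arrays with AzaC enter both this comparison and the AzaC effect in CD4 cells, so the 2 calls of Hells share 3 arrays.

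Uhrf1 and Tet3 were called lower in nTregs under PBS, with differences of −0.83 (SE 0.19, limma adjusted p = 0.0133) and −1.24 (SE 0.34, limma adjusted p = 0.037). Without nTreg PBS replicate 1 both were still called, at −0.56 (SE 0.12, limma adjusted p = 0.0124) and −0.66 (SE 0.14, limma adjusted p = 0.0119). The Tet3 difference is thus 1.24 with the outlying array and 0.66 without it, in the direction of lower RNA in nTregs, or 0.423-fold and 0.633-fold. Uhrf1 lost its call without CD4 PBS replicate 3 (limma adjusted p = 0.0603). With AzaC, neither was called (Uhrf1 −0.39, limma adjusted p = 0.258; Tet3 −0.63, limma adjusted p = 0.31), although both pairs of groups stood apart. Leaving out nTreg PBS replicate 1, which is in neither of those groups but enters the shared variance, brought the limma adjusted p-values to 0.0356 and 0.00557 at the same differences.

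Tet2 was 9.43 ± 0.08 in nTregs under PBS and 9.92 ± 0.11 in CD4 cells under PBS (SD, n = 3 each). Its difference of −0.48 (SE 0.14, limma adjusted p = 0.0428) was called, but among the 12 fits that leave out an array the call held in 2, those without CD4 AzaC replicate 1 or 2, and the adjusted p reached 0.143. Repeated quantile normalization gave −0.37 (limma adjusted p = 0.163). With AzaC the groups overlapped (−0.15, SE 0.14, limma adjusted p = 0.564). The call of Tet3 under PBS held in 4 of 12 such fits, those without CD4 AzaC replicate 1 or any 1 nTreg PBS array, with adjusted p-values up to 0.116, and gave 0.0505 with repeated quantile normalization.

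Of the members not called between populations, Uhrf2 was the 1 with every nTreg array above every CD4 array, at 0.29 with AzaC (SE 0.09, limma adjusted p = 0.092) and 0.27 under PBS (SE 0.09, limma adjusted p = 0.104). Some alternatives called Uhrf2 higher in nTregs: centred arrays with AzaC (0.36, limma adjusted p = 0.0280), repeated quantile normalization under PBS (0.38, limma adjusted p = 0.0383), and array weights in both (0.27 and 0.28, limma adjusted p = 0.0351 and 0.0460). Dnmt1 was −0.36 with AzaC and −0.47 under PBS (SE 0.18 each, limma adjusted p = 0.279 and 0.14), and −0.22 under PBS without nTreg PBS replicate 1. Dnmt3a was 0.05 with AzaC and −0.16 under PBS (limma adjusted p = 0.824 and 0.354). Dnmt3b was 0.34 with AzaC and 0.11 under PBS (limma adjusted p = 0.215 and 0.691), and 0.23 under PBS without nTreg PBS replicate 1. With AzaC the groups stood apart for 6 of the 9 members, 1 of them higher in nTregs, as for 32.3% of all genes (15.1% higher and 17.2% lower). Under PBS they stood apart for 7 members, 1 of them higher, as for 26.7% of all genes (13.5% higher and 13.2% lower). Without nTreg PBS replicate 1 the member counts were 8 and 2. Groups with fewer arrays stand apart more easily, and the share of all genes was not counted without that array. Beside these values stand the CD8 markers, which were called higher in nTregs than in CD4 cells with AzaC (Cd8a by 1.36, Cd8b1 by 1.27) and not under PBS. Of the 6 B cell markers, 1 was called higher in nTregs in each condition, Cd79b, by 1.08 with AzaC and 0.80 under PBS. With AzaC 2 of the 6 lay above zero and the median was −0.06, and under PBS 4 did, with a median of 0.04. The mean of the 6 was 6.50 to 6.72 in nTregs with AzaC and 6.54 to 6.71 under PBS. In CD4 cells it was 6.39 to 6.59 with AzaC and 6.47 to 6.51 under PBS. Of the 12 myeloid and dendritic cell markers, 2 were called higher with AzaC (H2-Aa by 1.15 and H2-Ab1 by 1.11) and 1 under PBS (H2-Ab1 by 0.82). With AzaC 5 of the 12 lay above zero and the median was −0.06, and under PBS 11 did, with a median of 0.15. Of 4 NK and gamma-delta T cell markers, 1 was called higher with AzaC, Klrk1, by 0.80, and it was the only 1 above zero there. The median over the 4 was −0.30 with AzaC, where 3 had an unadjusted p under 0.05. Under PBS 3 of the 4 lay above zero, with a median of 0.15 and 0 called. The mean of the 4 was 5.99 to 6.19 in nTregs with AzaC and 6.12 to 6.29 under PBS. In CD4 cells it was 5.95 to 6.32 with AzaC and 6.04 to 6.08 under PBS. Of 4 CD4 T cell markers, 2 were lower in nTregs under PBS, Cd4 by −0.83 and Cd3e by −0.77, and 0 with AzaC. The part of these markers in the values of the members was not tested.

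**Figure D3:**
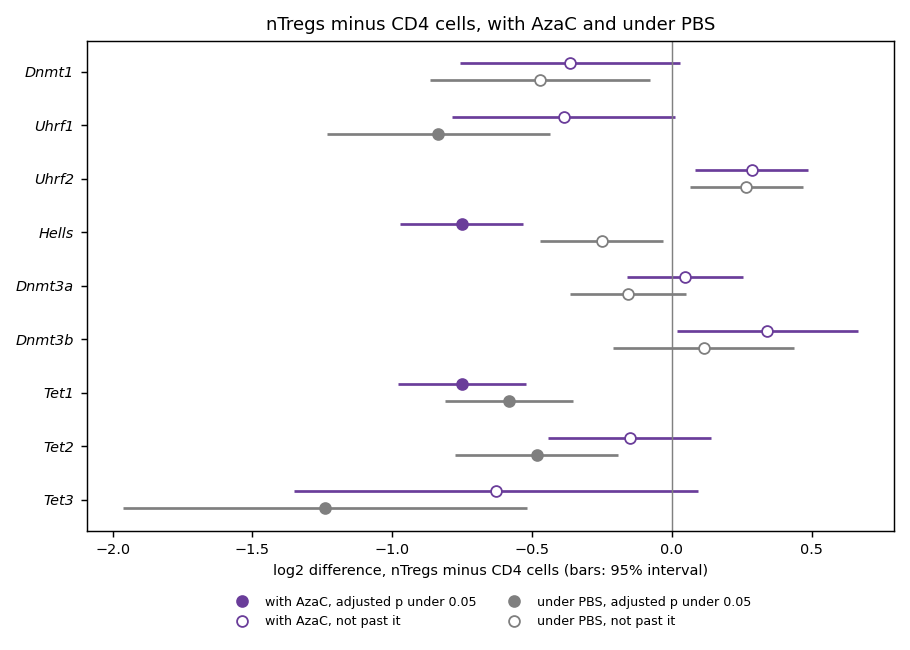
Log2 difference of each member, nTregs minus CD4 cells, with AzaC and under PBS, with 95% intervals from limma and filled points for an adjusted p under 0.05. Tet1 is filled in both conditions (−0.75 with AzaC, −0.58 under PBS), Hells with AzaC alone, and Uhrf1, Tet2 and Tet3 under PBS alone.

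The members did not share 1 order of group means. Dnmt1, Uhrf1 and Hells were highest in CD4 cells with AzaC, then CD4 cells under PBS, then nTregs with AzaC, and lowest in nTregs under PBS. Tet2 and Tet3 were highest in CD4 cells under PBS and lowest in nTregs under PBS, but without nTreg PBS replicate 1 Tet3 averaged 9.91 in nTregs under PBS and was lowest in nTregs with AzaC, at 9.86. Tet1 was highest in CD4 cells under PBS and lowest in nTregs with AzaC, and Uhrf2 ran from nTregs under PBS as its highest group to CD4 cells with AzaC as its lowest. Dnmt3a and Dnmt3b were both highest in nTregs with AzaC, with Dnmt3a lowest in nTregs under PBS and Dnmt3b lowest in CD4 cells under PBS. Neighbouring groups in these orders that differ only by the drug were not told apart by limma, other than Hells in CD4 cells, and groups that differ in both drug and population were not compared. The distance between the highest and the lowest group mean was 1.24 for Tet3, 1.03 for Uhrf1, 0.90 for Tet1 and 0.88 for Hells, and 0.30 for Dnmt3a, the smallest of the 9. Without nTreg PBS replicate 1 it was 0.71 for Tet3, 0.75 for Uhrf1 and 0.93 for Hells, so Hells and Tet1 then had the widest distances of the 9. The pooled SD within groups was 0.527 for Tet3, wider than for 99.6% of genes, and 0.170 without that array, wider than for 69.2% of genes. For Uhrf2 it was 0.069.

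Genes around the members were counted from further lists. In nTregs 0 of 7 measured methyl-CpG readers, 0 of 11 base excision repair genes, 0 of 12 partners and regulators of the enzymes and 0 of 7 genes of heterochromatin (histone H3 methylation and HP1) were called with AzaC, and in CD4 cells the counts were the same. In CD4 cells 2 of the 12 partners were called without nTreg PBS replicate 1, which enters the shared variance. That fit called 4.71% of all genes in CD4 cells, against 1.76% with all arrays. Unadjusted p-values under 0.05 were held by 0, 4, 3 and 1 genes of the 4 lists in nTregs and by 0, 3, 3 and 2 in CD4 cells. Averaged over both populations, 2 of the 12 partners rose with AzaC: Cdca7, which recruits Hells to chromatin, by 0.67 (SE 0.12, limma adjusted p = 0.00499), and Lig1, the replicative ligase that binds Uhrf1, by 0.37 (SE 0.08, limma adjusted p = 0.0212). Cdca7 averaged 9.09 ± 0.15 in nTregs with AzaC and 8.41 ± 0.18 under PBS, and 8.96 ± 0.32 in CD4 cells with AzaC and 8.32 ± 0.24 under PBS (SD, n = 3 each). Cbx5, an HP1 protein, was the 1 heterochromatin gene to rise in that average, by 0.34 (SE 0.08, limma adjusted p = 0.0367).

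Between populations the repair list had calls in both directions. Gadd45b and Gadd45g, stress genes that have been linked to demethylation, were higher in nTregs than in CD4 cells with AzaC by 1.05 and 1.24 (limma adjusted p = 2.17e-05 and 0.00213) and under PBS by 0.70 and 1.24 (limma adjusted p = 0.000913 and 0.00225). The glycosylase gene Neil3 was lower in nTregs, by −0.80 with AzaC and −0.42 under PBS (limma adjusted p = 0.000271 and 0.0287), and Neil1 was higher with AzaC, by 0.75 (limma adjusted p = 0.000614). That made 3 of 11 higher and 1 lower with AzaC, and 2 higher and 1 lower under PBS (2 and 2 without nTreg PBS replicate 1). Lig1 and Cbx5 were the only called genes of their lists, both lower in nTregs, by −0.41 and −0.43 with AzaC (limma adjusted p = 0.0438 and 0.0397) and −0.44 and −0.50 under PBS (limma adjusted p = 0.0293 and 0.0188). Under PBS 0 of the 12 partners were called without nTreg PBS replicate 1. Among the methyl-CpG readers 0 of 7 were called between populations, with 1 at an unadjusted p under 0.05 with AzaC and 0 under PBS.

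Of the 8 measured genes of methyl donor and 2-oxoglutarate metabolism, some passed the test with AzaC. Shmt1, a serine hydroxymethyltransferase of the folate cycle, rose by 0.47 in nTregs and by 0.53 in CD4 cells (SE 0.11 each, limma adjusted p = 0.0483 and 0.028). Idh1, an isocitrate dehydrogenase that makes the cosubstrate of the Tet enzymes, averaged 7.69 ± 0.26 in CD4 cells with AzaC and 8.90 ± 0.18 under PBS (SD, n = 3 each), a fall of 1.21 on the log2 scale, written −1.21 in the fit (SE 0.18, limma adjusted p = 0.00313). Its mitochondrial counterpart Idh2 fell as well, with −0.57 (SE 0.13, limma adjusted p = 0.0368). So 1 of the 8 genes was higher in nTregs, and 1 was higher and 2 lower in CD4 cells. Ahcy, which clears the product inhibitor of methyltransferases, was higher in nTregs than in CD4 cells by 0.65 with AzaC and 0.88 under PBS (limma adjusted p = 0.0469 and 0.00898). Under PBS 3 of the 8 were lower in nTregs, Idh2 (−0.61), Mtr (−0.59) and Idh1 (−0.62), and 1 of the 8 without nTreg PBS replicate 1.

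Germline genes that DNA methylation silences in somatic cells are a common readout of lost methylation. Of the 17 measured, limma called 0 in nTregs and 0 in CD4 cells with AzaC, with 1 at an unadjusted p under 0.05 in each. Their median difference was −0.02 in nTregs and 0.02 in CD4 cells. The mean of the 17 was low on every array, at 5.13 to 5.33, below the array medians of 6.67 to 6.80. A small rise could be missed at that level, and DNA methylation itself was not measured. Ddx4, the germline helicase with the smallest p in nTregs, had 4.99 ± 0.09 with AzaC and 5.28 ± 0.20 under PBS (−0.29, SE 0.11, limma adjusted p = 0.203).

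Dnmt1 and Uhrf1 are known to be made mainly in replicating cells, so S phase genes were set beside the members. With AzaC 2 of 18 were called higher in nTregs (Tk1 by 0.75 and Mcm2 by 0.69, limma adjusted p = 0.00292 and 0.0143) and 3 of 18 in CD4 cells (Cdc6 by 0.64, Mcm2 by 0.58 and Mcm6 by 0.47, limma adjusted p = 0.0146, 0.0395 and 0.041), with 0 lower in either. The mean level of the 18 was 9.39 to 9.43 in nTregs with AzaC and 8.91 to 9.20 under PBS, and 9.65 to 9.86 in CD4 cells with AzaC and 9.42 to 9.57 under PBS. The groups stood apart in both populations, and nTreg PBS replicate 1 was the lowest of the 12. Without that array 3 of 18 were called higher in nTregs and 5 of 18 in CD4 cells, where 1.85% and 4.71% of all genes were called. Between populations 5 of 18 were called lower in nTregs with AzaC and 6 under PBS, and 0 higher.

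Mitotic genes were counted in the same way. Of 14, 0 were called higher and 2 lower with AzaC in nTregs (Bub1 −0.52 and Cenpe −0.46, limma adjusted p = 0.0276 and 0.0378), and 0 were called in CD4 cells. Without nTreg PBS replicate 1 the nTreg count was 0, but the median over the 14 was −0.26, against −0.18 with all arrays. In CD4 cells the median was −0.23, with 0 of the 14 above zero. Between populations 8 of 14 were lower in nTregs with AzaC and 10 under PBS, and 8 under PBS without that array.

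Correlations within groups depended on nTreg PBS replicate 1 for several members. After each group's mean was taken out, the correlation of Dnmt1 with Uhrf1 over the 12 arrays was 0.918, and 0.731 over 11 without that array. Hells correlated at −0.402 with Dnmt1 and −0.518 with Uhrf1, and at −0.070 and −0.291 without that array. Over the 12 arrays Tet2 and Tet3 correlated at 0.364, Tet1 and Tet3 at 0.251, and Dnmt1 and Dnmt3b at 0.0001. Without that array these values were 0.856, 0.760 and −0.821. With the S phase mean the correlation was 0.871 for Dnmt1 and 0.843 for Uhrf1, and 0.713 and 0.655 without that array. For Tet3 it was 0.612, and −0.319 without that array. For Hells it was −0.323, and −0.003 without that array, where its group means had the order of Dnmt1 and Uhrf1. These are descriptions without a test, over arrays that share the normalization and the quality of each RNA.

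**Figure D4:**
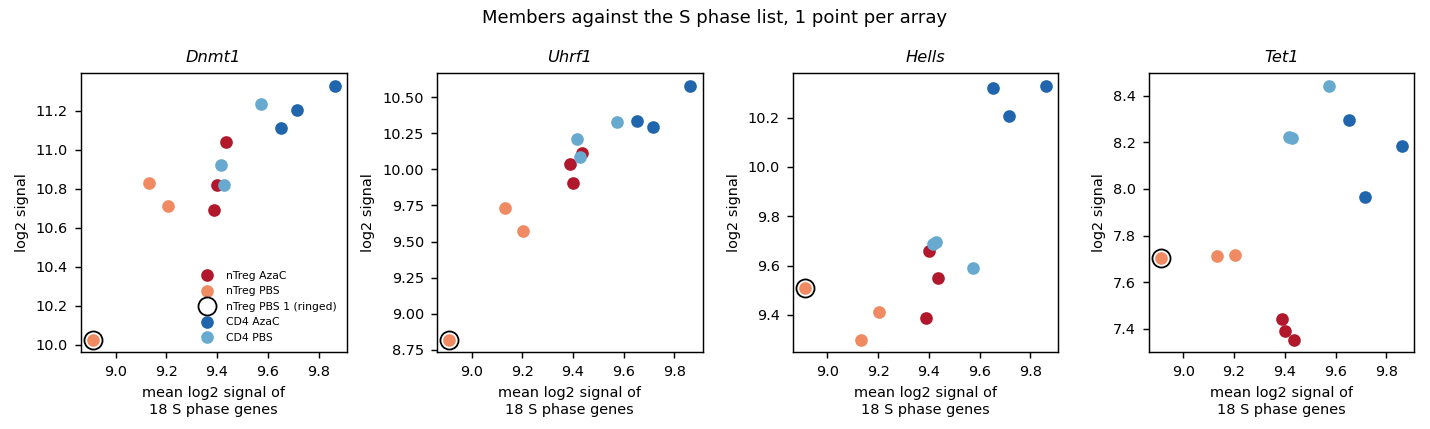
Log2 signal of Dnmt1, Uhrf1, Hells and Tet1 against the mean log2 signal of 18 S phase genes, with a point per array and colours for the 4 groups. nTreg PBS replicate 1 is ringed at the left edge (S phase mean 8.91) with the lowest Dnmt1 and Uhrf1, and the Hells points of CD4 cells with AzaC stand above those of the other groups.

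The genes most alike in pattern to the called members were taken by Pearson correlation over the 12 arrays, which holds both the distances between groups and the variation within them. For Hells they were Tns4, Slc35g1 and Tra2b (r = 0.952, 0.951 and 0.941), with 0.192, −0.075 and 0.323 once group means were taken out. For Tet1 they were Ttk, Evl and Themis (0.983, 0.981 and 0.979), and for Tet2 Atat1, Smarca2 and Tmem86b (0.914, 0.911 and 0.905). For Uhrf1 they were Rnf168, Iqgap1 and Zfpm1 (0.982, 0.973 and 0.972), at 0.950, 0.926 and 0.920 without nTreg PBS replicate 1. With group means taken out these were 0.967, 0.948 and 0.962, and 0.835, 0.848 and 0.814 without that array. For Tet3 they were Trak2, Bcl7a and Cd3e (0.986, 0.978 and 0.975), at 0.946, 0.914 and 0.947 without it. With group means taken out these were 0.974, 0.977 and 0.992, and 0.761, 0.813 and 0.914 without it.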

How the data were processed

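RNA from 12 samples was measured on Affymetrix arrays after WT Pico labelling, per the labels' protocols. The submitters' processing notes name RMA and Affymetrix Expression Console, without versions, for the deposited log2 values; RMA corrects background, quantile-normalizes the arrays together and summarises probe sets. The genome build: not given in the sources used here. Values were used as deposited, with no filter on dim genes. Of 41345 rows, 25335 are in the array's probe table and 23521 carry exactly 1 symbol; the brightest row per gene gave 22180 genes.

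Group means were estimated from the 12 arrays in 1 linear model (limma 3.58.1, R 4.3.3, 8 residual and 5.95 prior degrees of freedom), with 6 comparisons and Benjamini-Hochberg adjustment over all genes. Log2 differences had a median SE of 0.13, a precision that the 3 arrays per group limit. The procedure was tested on simulated data. Samples were grouped by the population and drug in their titles. Same-numbered arrays were not taken as pairs: their deviations from group means correlated at −0.099 to 0.187, and 4 of 12 arrays were most like an array with their own number.

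The members, gene lists and tests were chosen with earlier results of these data known. All members are named; of other lists the called genes are named, up to 4 per comparison with the smallest p, or else the 1 with the smallest p; and the 3 genes most correlated with each called member, passing over other members, gene models, small RNAs, receptor segments and histone genes. Alternatives were normalization, filters, row choice, fits of fewer groups, a replicate block, weights and moderation. Leaving nTreg PBS replicate 1 out of list counts, medians, orders and correlations was chosen after seeing the data.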

Additional observations from a re-analysis of the deposited data

How the results depend on the processing

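Over 20 alternatives, 12 of which leave out an array, the 54 member values kept their direction and side of the threshold in 997 cases; 24 lost a call, 15 gained one and 26 changed sign. Among those with a sign change, none was called before or after it, and the cause was not tested. For many of the 997 the direction was fixed in advance. Each measured member has 1 row of its own symbol, so averaging a gene's rows kept its values. A filter on dim genes, fits of fewer groups, the replicate block, the moderation and leaving out an array outside a comparison kept the log2 difference too. In these settings only the SE and the p-values could move. The count of members called was unchanged in every comparison with the replicate block (0 in nTregs, 1 in CD4 cells, 0 for their difference, 4 under PBS, 2 with AzaC and 1 in the average). Leaving out each array gave counts of 0 to 1 for AzaC in nTregs, 1 to 4 between populations under PBS, 2 to 4 with AzaC and 1 to 2 in the average. Of all genes these fits called 0.839% to 2.02%, 4.7% to 8.39%, 4.04% to 11.1% and 2.27% to 5.61%. Array weights gave 1 for AzaC in nTregs (Dnmt3a), 4 between populations with AzaC and 3 in the average. They called 5.82%, 15.8% and 8.17% of all genes there, against 2.02%, 6.75% and 3.71% as reported. Fitting only the groups compared gave 1 under PBS (Tet1) and 4 with AzaC, where 2.92% and 10.6% of all genes were called.

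Sign changes without leaving out an array were as follows. Repeated quantile normalization gave 0.012 for Uhrf2 in CD4 cells with AzaC, −0.063, −0.17 and −0.0043 for Dnmt1, Uhrf2 and Dnmt3a in the difference of effects, and −0.079 for Dnmt3a between populations with AzaC. Centring gave 0.0020 for Uhrf2 in nTregs. Array weights gave −0.22 for Dnmt1 and −0.010 for Uhrf2 in the difference of effects and −0.045 for Tet3 in the average. Leaving out an array, the range was −0.051 to 0.84 for Tet3 in nTregs, −0.038 to 0.18 for Dnmt3b and −0.25 to 0.022 for Tet3 in CD4 cells. It was −0.14 to 0.26 for Dnmt1 and −0.030 to 0.052 for Uhrf2 in the difference of effects. Between populations it was −0.00046 to 0.23 for Dnmt3b under PBS, and −0.00031 to 0.097 for Dnmt3a and −0.29 to 0.017 for Tet2 with AzaC. In the average it was −0.073 to 0.080 for Tet2 and −0.067 to 0.38 for Tet3.

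Genes called over all 22180 ranged widely: 125 to 1290 for AzaC in nTregs, 164 to 1291 in CD4 cells, 9 to 401 for their difference, 648 to 2528 under PBS, 896 to 3500 with AzaC and 504 to 1811 in the average, where the counts as reported were 448, 391, 45, 1777, 1498 and 822. The highest count came with array weights each time.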
